A study of Arabidopsis thaliana with 9 samples.

Results

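The 36 genes described here encode heat shock proteins, heat shock transcription factors and closely associated heat tolerance proteins of Arabidopsis, chosen as a fixed list of gene IDs out of 32833 genes listed in the files. They comprise 13 small heat shock proteins (HSPs), 11 larger chaperones and tolerance proteins, and 12 heat shock factors. Their transcripts were measured by RNA-seq in roots of seedlings that carried p35S::XVE>>pLexA::STZ in the Col-0 background. In this construct the constitutive 35S promoter drives XVE, an activator that estradiol switches on, and XVE then drives the zinc finger gene STZ. The 9 libraries formed 3 groups of 3, namely roots after 24 h of 20 µM estradiol, roots after 6 h of 20 µM estradiol, and mock roots after 24 h of ethanol. All of the groups carried the transgene, and the study's methods name a single T3 line, #2. Estradiol-treated roots without the transgene are not among these samples, so estradiol itself and STZ cannot be told apart, and the 6 h roots were set against mock roots of another duration. The series text and the methods describe the dissected portion of the root in different terms. No heat treatment is named in the labels.

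Cells respond to unfolded proteins with chaperones of distinct kinds. Small HSPs hold unfolding proteins without using ATP, HSP70 and HSP90 machines refold or mature them, and HSP101 pulls apart aggregates. In plants the class A heat shock factors (HSFs) activate these genes by binding heat shock elements, which are inverted repeats of a short unit in promoters, whereas the class B factors HSFB1, HSFB2A and HSFB2B act mainly as repressors.

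STZ served as a check of the labels, with means of 11329.7 ± 1557 CPM at 24 h, 1182 ± 145 CPM at 6 h and 23.8 ± 5.58 CPM in mock (SD, n = 3 each). CPM here means the reads of a gene after scaling all libraries to a common size, and the libraries held 24375822 to 31299634 counted reads. The 8 root markers together gave 10514 to 12572 CPM at 24 h, 18252 to 19077 CPM at 6 h and 15694 to 16451 CPM in mock, and none of them was at 0 reads in any library. PYK10 made up most of this sum, with means of 11047 CPM at 24 h, 18319 CPM at 6 h and 15809 CPM in mock. Tested singly by the threshold given below, 0 of the 8 root markers differed from mock at 6 h. At 24 h, 2 of them (SCR and BRN1) were higher than mock and 0 were lower. The 8 shoot markers together gave 40.9 to 47.4 CPM at 24 h, 42.9 to 47.6 CPM at 6 h and 181 to 189 CPM in mock, with RBCS3B at 0 reads in every library. All 6 of the shoot markers that could be tested were lower than mock at both times, and the part of this shift in the results below was not tested. In these bulk roots, fewer cells of a type and less RNA per cell cannot be told apart. Replicates were labelled as biological without naming separate sowings or plates, and the p-values then cover only differences among these libraries, which may be technical.

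To see which upstream sequences accompany these genes, the 250 bases before each annotated start were searched in RefSeq's TAIR10.1 annotation. The heat shock element was searched as 2 inverted units, GAANNTTC or TTCNNGAA, and as 3 units, in which NNGAA follows GAANNTTC, on both strands, and each 3-unit match also holds both of the 2-unit forms. A 2-unit match was present upstream of 11 of 36 members (30.6%), against 16.1% of 27443 protein-coding genes. A 3-unit match was present upstream of 5 of 36 members (13.9%), against 0.386% of all protein-coding genes. The 5 genes were the small HSPs HSP17.4 and HSP17.6C and the factors HSFA2, HSFA7A and HSFA7B. A 2-unit match was found for 3 of 11 members higher and 1 of 3 lower at 6 h than in mock, and for 3 of 9 higher and 4 of 9 lower at 24 h than in mock. It was found for 1 of 4 members higher and 6 of 16 lower at 24 h than at 6 h, and for 0 of the 8 tested members called in no comparison. A match is a run of letters and not a measured binding site, and members without one simply lack these letters in this window.

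The following 120-base stretches are examples from members with a match, whose time courses are described below. Among these members, HSP17.6C and HSP17.6A had the same calls in every comparison. Each stretch is given 5′ to 3′ on the gene's own strand, with every 2-unit match in capitals. They come from chr3:16984868-16984987 on the minus strand (HSP17.4), chr1:19980179-19980298 on the plus strand (HSP17.6C), chr5:3884839-3884958 on the minus strand (HSP17.6A), chr2:11135504-11135623 on the plus strand (HSFA2) and chr3:19264949-19265068 on the plus strand (HSFA7A), all in TAIR10.1.
HSP17.4: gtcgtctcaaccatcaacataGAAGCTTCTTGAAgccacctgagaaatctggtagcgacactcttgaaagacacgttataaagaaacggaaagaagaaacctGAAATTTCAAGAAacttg
HSP17.6C: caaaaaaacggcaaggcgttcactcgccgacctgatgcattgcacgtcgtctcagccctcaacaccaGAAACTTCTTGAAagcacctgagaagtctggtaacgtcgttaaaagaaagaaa
HSP17.6A: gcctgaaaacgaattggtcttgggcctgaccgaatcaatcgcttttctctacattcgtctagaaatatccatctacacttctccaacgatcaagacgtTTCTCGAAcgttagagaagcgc
HSFA2: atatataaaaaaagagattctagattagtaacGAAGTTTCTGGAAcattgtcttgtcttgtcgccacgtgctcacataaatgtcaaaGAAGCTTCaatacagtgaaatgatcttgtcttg
HSFA7A: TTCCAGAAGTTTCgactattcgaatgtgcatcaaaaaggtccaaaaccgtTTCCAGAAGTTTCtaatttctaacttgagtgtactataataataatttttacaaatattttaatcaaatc
HSP17.4 had a pair of 3-unit matches in this stretch, HSP17.6C had a single one ending 41 bases before the start, and HSP17.6A had only a 2-unit match. HSFA2 held a 3-unit match followed by a separate 2-unit match, and HSFA7A held a pair of 3-unit matches farther from its start.

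**Figure D1:**
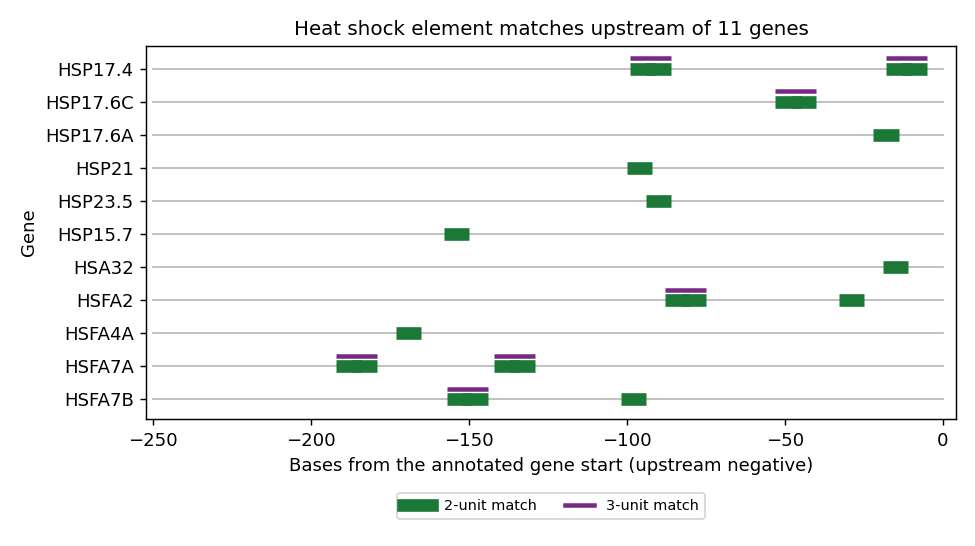
Heat shock element matches in the 250 bases upstream of the 11 members that had one, with bases from the annotated start on the horizontal axis. Green blocks mark 2-unit matches and purple lines mark 3-unit matches, which 5 of the genes held.

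Of the 36 members, 34 had enough reads to be tested, and 26 of these were called in at least 1 of the 3 comparisons, where a call required an adjusted p below 0.01 in edgeR's quasi-likelihood test over 20272 genes and a fold change of at least 1.5. At 6 h, 11 members were higher than mock, where 5.43% of all tested genes were, and 3 were lower, where 7.71% of all tested genes were. At 24 h, 9 members were higher than mock (17.6% of all tested genes) and 9 were lower (18.0% of all tested genes). Between the times, 4 members were higher at 24 h than at 6 h (14.1% of all tested genes) and 16 were lower (10.5% of all tested genes). The median log2 fold change of the tested members was 0.06 at 6 h and 0.03 at 24 h against mock, and -0.50 at 24 h against 6 h, beside medians of 0.00, -0.01 and -0.02 over all tested genes. The 6 h and 24 h comparisons share the same mock libraries. Of the 34 tested members, 29 exceeded the read minimum in every library, whereas HSP17.6II, HSP22, HSP23.6 and BIP3 passed it through the 1 group in which they were high, so that their inclusion in these counts follows from that group.

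Some calls depended on the processing. With limma on log2(RPKM + 1), which compresses low levels, the 24 h calls against mock of HSP17.6C, HSP17.6II, BIP3, HSFA2 and HSFA3 were lost, as were the 6 h call of HSP70B and the calls between the times of HSP18.2, HSP15.7, HSA32, ROF2 and BIP3. A test against a 1.2-fold change lost the 6 h calls of MBF1C and HSFB1 and the calls between the times of HSP15.7 and ROF2, DESeq2 and a fit of only the groups compared lost that of HSP15.7, and upper-quartile scaling lost that of HSA32. Other calls were gained. At 6 h against mock, ROF2 and HSFA1B passed as lower with upper-quartile scaling and with total counts, and HSFA1B also with the stricter filter, limma-voom, only the groups compared, log2(RPKM + 0.1) and the test against a 1.2-fold change. At 24 h against mock, MBF1C passed as lower with upper-quartile scaling, and HSFA1A and HSFA1D as higher in the test against a 1.2-fold change. HSFB1 passed as higher at 24 h than at 6 h in the fit of only the groups compared.

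**Figure D2:**
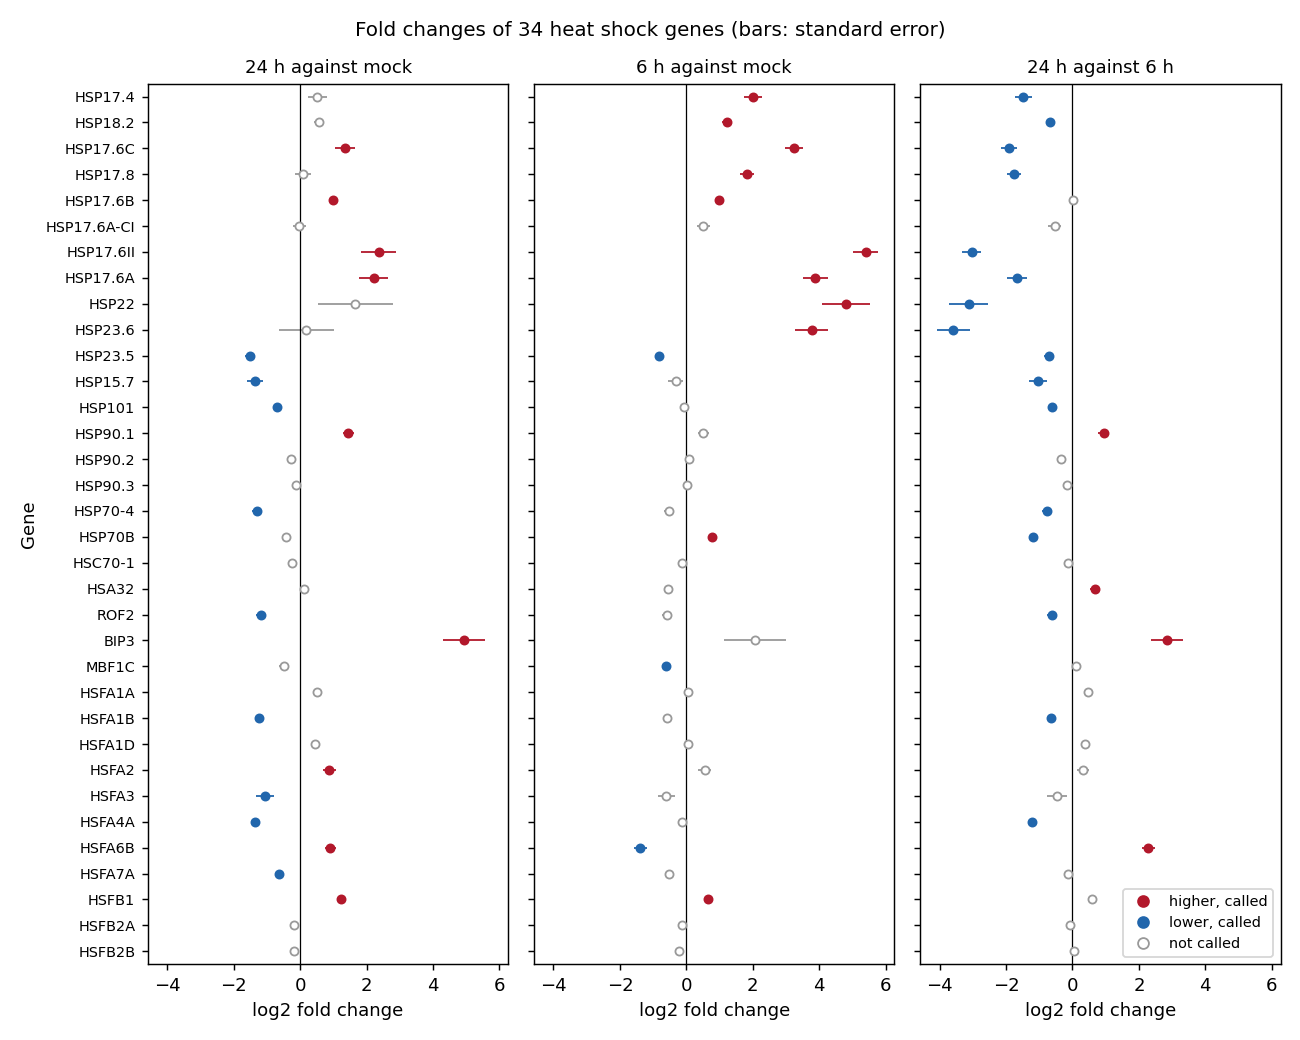
Log2 fold changes of the 34 tested members in the 3 comparisons, with bars for the standard error. Filled red and blue points passed the threshold as higher and lower, and the small HSPs in the upper rows lie to the right of 0 at 6 h against mock for the most part and to the left of 0 at 24 h against 6 h.

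The cytosolic small HSPs formed the group with the most members higher at 6 h. Of its 8 genes, 7 were higher at 6 h than in mock and 0 lower (5.43% and 7.71% of all tested genes). At 24 h, 4 were higher than in mock (17.6% of all tested genes). Between the times, 6 were lower at 24 h than at 6 h (10.5% of all tested genes). HSP17.6II is among the 7, the 4 and the 6, and passed the read minimum only through its 6 h group. The summed level of the 8 genes was 49.3 to 77.2 CPM at 24 h, 85.9 to 92.0 CPM at 6 h and 31.5 to 38.1 CPM in mock. HSP17.6B made up most of this sum, with means of 50.5 CPM at 24 h, 50.4 CPM at 6 h and 25.5 CPM in mock. Within the 24 h group, replicate 1 was the highest and replicate 3 the lowest for 8 of 8 cytosolic small HSPs. Among the other members, HSP90.1, HSP101, HSP70-4, HSP70B, HSA32, MBF1C, HSFA1A, HSFA2 and HSFB1 had the same order. The remaining members did not. The share of all tested genes with this order was not counted.

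Among them the class II pair had the largest log2 fold changes at 6 h. HSP17.6II (AT5G12020; HSP17.6 in the files) measured 1.09, 0.530 and 0.310 CPM at 24 h, 5.25, 5.19 and 5.85 CPM at 6 h, and 0.110, 0.170 and 0.0945 CPM in mock. The 3 groups did not overlap, with the 6 h libraries on top and mock near the limit of detection at 3 to 5 reads per library. The log2 fold change was 5.40 ± 0.37, adjusted p = 1.30e-06, at 6 h against mock and 2.36 ± 0.52, adjusted p = 0.00153, at 24 h against mock, where the value after ± is the standard error here and below. At 24 h against 6 h it was -3.04 ± 0.29, adjusted p = 4.11e-06. Without 24 h replicate 1 these 24 h values were 1.70 against mock and -3.70 against 6 h, both still called. Its neighbour HSP17.6A (AT5G12030; HSP17.7 in the files), 845 bases away on the same strand of chromosome 5, measured 2.42, 2.03 and 0.815 CPM at 24 h, 5.96, 5.30 and 5.50 CPM at 6 h, and 0.515, 0.476 and 0.157 CPM in mock. It likewise separated into 3 levels, with 3.88 ± 0.38, adjusted p = 1.48e-05, at 6 h, 2.22 ± 0.43, adjusted p = 0.000684, at 24 h against mock, and -1.66 ± 0.30, adjusted p = 0.000599, at 24 h against 6 h. HSP17.6II occupies chr5:3882231-3883111 and HSP17.6A chr5:3883957-3884838 in TAIR10.1, each with 1 exon on the minus strand.

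Among the class I proteins, HSP17.6C (AT1G53540, 1 exon at chr1:19980299-19981199) measured 2.18, 1.90 and 0.931 CPM at 24 h, 6.85, 5.45 and 6.56 CPM at 6 h, and 0.773, 0.578 and 0.630 CPM in mock. All 6 h libraries lay above all 24 h libraries, and these above all mock libraries. The log2 fold change was 3.25 ± 0.27, adjusted p = 4.06e-06, at 6 h and 1.34 ± 0.31, adjusted p = 0.00213, at 24 h against mock, and -1.91 ± 0.24, adjusted p = 3.18e-05, between the times. The 24 h call against mock was lost without 24 h replicate 1 (1.08, adjusted p = 0.0135). HSP17.4 (AT3G46230, 1 exon at chr3:16984118-16984867) measured 4.53, 3.35 and 1.59 CPM at 24 h, 8.75, 8.80 and 9.17 CPM at 6 h, and 2.58, 2.31 and 1.80 CPM in mock. It was 4.01-fold higher at 6 h than in mock (2.00 ± 0.27, adjusted p = 0.000138), whereas the 24 h libraries spread widely and overlapped mock (0.52 ± 0.29, adjusted p = 0.136). Without 24 h replicate 3, the 24 h difference from mock passed the threshold (0.84, adjusted p = 0.00213). At 24 h against 6 h HSP17.4 was lower (-1.49 ± 0.26, adjusted p = 0.000418). An antisense protein-coding gene, AT3G46220, and a long noncoding RNA overlap HSP17.4 in the annotation, and without a stated strand rule for counting, the reads of these genes cannot be told apart. The same holds for HSP101, MBF1C, HSFA1B, HSFA3 and HSFB2B, which genes on the other strand overlap, and for HSA32, which a gene on its own strand overlaps.

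HSP17.8 (AT1G07400) showed a rise at 6 h without a called difference from mock at 24 h. Its levels were 1.47, 1.32 and 0.854 CPM at 24 h, 4.17, 4.42 and 3.84 CPM at 6 h, and 1.44, 1.09 and 0.976 CPM in mock. The 24 h and mock libraries interleaved, and all 6 h libraries stood above both groups. HSP17.8 gave log2 fold changes of 1.83 ± 0.21, adjusted p = 4.72e-05, at 6 h, and 0.07 ± 0.24, adjusted p = 0.807, at 24 h against mock, and -1.76 ± 0.21, adjusted p = 2.57e-05, between the times. HSP18.2 (AT5G59720; HSP18.1 in the files) measured 3.33, 2.78 and 2.60 CPM at 24 h, 4.28, 4.86 and 4.76 CPM at 6 h, and 1.95, 1.90 and 2.05 CPM in mock. Its groups did not overlap, but only the 6 h comparison with mock (1.23 ± 0.15, adjusted p = 6.21e-05) and the comparison of the times (-0.67 ± 0.14, adjusted p = 0.00170) passed both thresholds. At 24 h against mock the fold fell short (1.48-fold, 0.56 ± 0.15, adjusted p = 0.00634). This comparison passed without 24 h replicate 3 (0.64, adjusted p = 0.00480) and without 6 h replicate 2 (0.59, adjusted p = 0.00631).

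HSP17.6B (AT2G29500) differed from mock by similar amounts at both times. It measured 59.0, 52.0 and 40.5 CPM at 24 h, 49.8, 54.3 and 46.9 CPM at 6 h, and 28.1, 25.2 and 23.1 CPM in mock. Both estradiol groups lay wholly above mock and overlapped each other. On the log2 scale the differences were 0.98 ± 0.12, adjusted p = 9.86e-05, at 6 h and 0.99 ± 0.12, adjusted p = 2.14e-05, at 24 h against mock, and 0.00 ± 0.12, adjusted p = 0.977, at 24 h against 6 h. HSP17.6A-CI (AT1G59860; HSP17.6A in the files), the remaining class I gene, was called in no comparison. It averaged 2.49 ± 0.725 CPM at 24 h, 3.61 ± 0.338 CPM at 6 h and 2.53 ± 0.169 CPM in mock (SD, n = 3 each). Without 24 h replicate 1 it passed as lower at 24 h than at 6 h (-0.77, adjusted p = 0.00799).

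**Figure D3:**
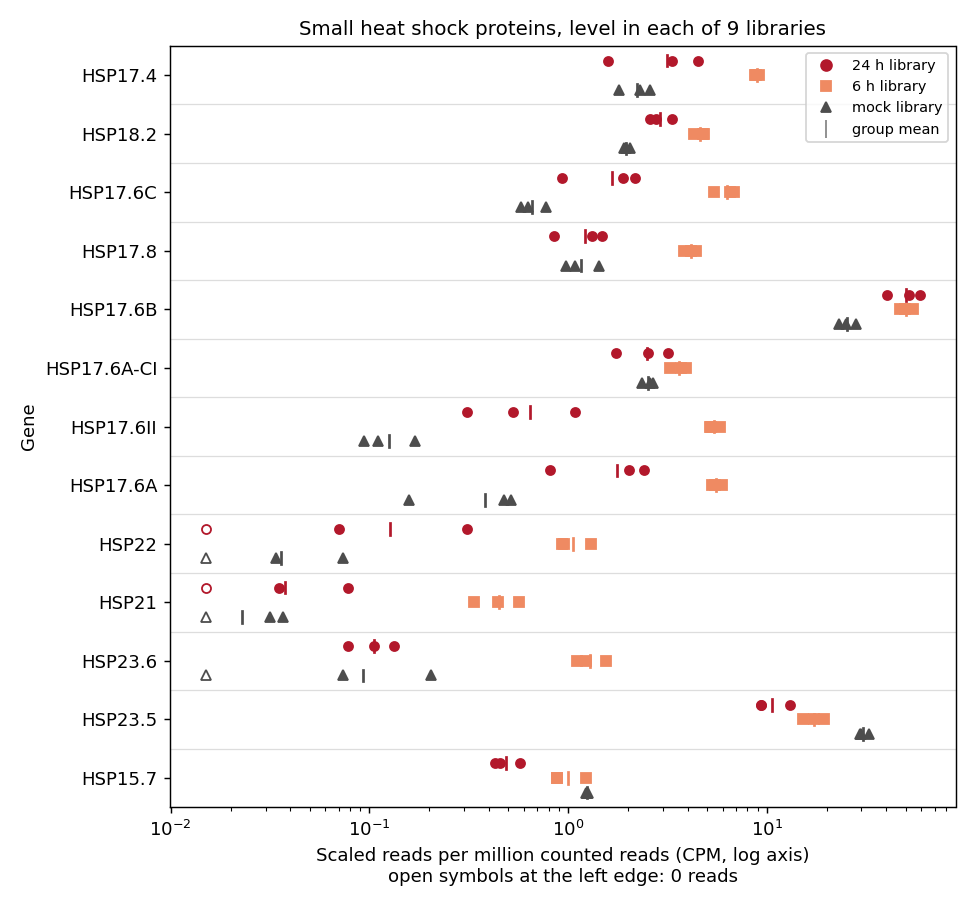
Level of the 13 small HSPs in each of the 9 libraries, in CPM on a log axis, with vertical ticks for group means and open symbols for libraries with 0 reads. The 6 h libraries stand above the mock libraries except for HSP23.5 and HSP15.7, although HSP17.6A-CI was not called and HSP21 was not tested. How many of all genes separate in this way was not counted.

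At 6 h against mock, the small HSPs of organelles did not move as a group. Of 4 tested members, 2 were higher and 1 was lower (5.43% and 7.71% of all tested genes). The higher members, HSP22 and HSP23.6, passed the read minimum only through the 6 h group, so their inclusion in this count follows from that group. HSP22 (AT4G10250), which resides in the endoplasmic reticulum (ER), had 2, 7 and 0 reads at 24 h, 25, 26 and 37 reads at 6 h, and 2, 1 and 0 reads in mock. The 6 h libraries stood apart from both other groups. Its scaled reads at 6 h were 31.5 times those in mock (95% exact interval 10.4 to 155, counting error only), and it passed the test (4.80 ± 0.72, adjusted p = 0.000338). At 24 h against mock the ratio was 3.44 (0.860 to 19.8) and not called, and at 24 h against 6 h it was lower (-3.13 ± 0.59, adjusted p = 0.000803). Leaving out mock replicate 1 moved the 6 h value to 5.68, and leaving out 24 h replicate 2 moved that between the times to -4.70, both still called. HSP23.6 (AT4G25200), a mitochondrial protein, had 3, 3 and 2 reads at 24 h, 33, 30 and 44 reads at 6 h, and 2, 6 and 0 reads in mock. It was higher at 6 h than in mock (3.77 ± 0.50, adjusted p = 0.000148) and lower at 24 h than at 6 h (-3.58 ± 0.51, adjusted p = 9.59e-05), and its 24 h and mock libraries overlapped. Its 6 h value was 5.08 without mock replicate 2 and 3.16 without mock replicate 3, and was called in either case. HSP21 (AT4G27670), the small HSP of plastids, had too few reads to be tested, with 1, 0 and 2 reads at 24 h, 9, 12 and 16 reads at 6 h, and 1, 0 and 1 reads in mock. Its scaled reads at 6 h were 19.8 times those in mock (95% exact interval 5.12 to 170), and this ratio carries counting error only.

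The mitochondrial HSP23.5 (AT5G51440) was lower at 6 h than in mock, where HSP23.6 was higher. Both genes were lower at 24 h than at 6 h. HSP23.5 measured 13.1, 9.31 and 9.39 CPM at 24 h, 17.4, 19.5 and 15.2 CPM at 6 h, and 32.7, 29.7 and 29.4 CPM in mock. The 3 groups did not overlap, and mock was the highest. The log2 fold change was -0.82 ± 0.13, adjusted p = 0.000455, at 6 h, and -1.52 ± 0.13, adjusted p = 1.10e-06, at 24 h against mock, and -0.71 ± 0.14, adjusted p = 0.000878, between the times. HSP15.7 (AT5G37670), found in peroxisomes, measured 0.456, 0.574 and 0.427 CPM at 24 h, 1.23, 0.884 and 0.881 CPM at 6 h, and 1.25, 1.22 and 1.26 CPM in mock. It was lower at 24 h than in mock (-1.36 ± 0.25, adjusted p = 0.000473) and was not called at 6 h (-0.32 ± 0.22, adjusted p = 0.280). At 24 h it was also lower than at 6 h (-1.04 ± 0.26, adjusted p = 0.00512), a call lost without 24 h replicate 1 (-0.998, adjusted p = 0.0207), 24 h replicate 3 (-0.96, adjusted p = 0.0159), 6 h replicate 1 (-0.87, adjusted p = 0.0274) or mock replicate 2 (-1.03, adjusted p = 0.0101).

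Of 7 large cytosolic chaperones, 1 was higher and 0 lower than mock at 6 h (5.43% and 7.71% of all tested genes). At 24 h, 1 was higher and 2 lower than mock (17.6% and 18.0% of all tested genes). HSP90.1 (AT5G52640), the heat-inducible cytosolic HSP90, measured 299.6, 237 and 189 CPM at 24 h, 137, 137 and 106 CPM at 6 h, and 103, 87.3 and 76.7 CPM in mock. Its libraries at 24 h all exceeded those at 6 h, which all exceeded mock. It was 2.72-fold higher at 24 h than in mock (1.44 ± 0.16, adjusted p = 9.19e-06) and higher at 24 h than at 6 h (0.93 ± 0.16, adjusted p = 0.000413), while the 6 h difference from mock was not called (0.51 ± 0.16, adjusted p = 0.0277). The constitutive HSP90.2 (AT5G56030) and HSP90.3 (AT5G56010) were called in no comparison. HSP90.2 averaged 355 ± 52.0 CPM at 24 h, 449 ± 40.3 CPM at 6 h and 427 ± 39.9 CPM in mock, and HSP90.3 399 ± 38.4, 446 ± 33.1 and 439 ± 36.7 CPM in the same groups (SD, n = 3 each). The genes are paralogs 2220 bases apart between which counting could split reads, and 97.3% and 96.6% of their reads were placed uniquely.

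The HSP70 proteins, ATP-driven folding machines, diverged. HSP70B (AT1G16030), a heat-inducible form, measured 5.33, 4.24 and 4.15 CPM at 24 h, 9.87, 10.3 and 11.2 CPM at 6 h, and 6.85, 5.85 and 5.83 CPM in mock. The 6 h libraries were the highest and the 24 h libraries the lowest, without overlap. It was 1.70-fold higher at 6 h than in mock (0.76 ± 0.12, adjusted p = 0.000480) and lower at 24 h than at 6 h (-1.19 ± 0.13, adjusted p = 9.74e-06), and at 24 h against mock it was not called (-0.42 ± 0.13, adjusted p = 0.0125). HSP70-4 (AT3G12580; MED37C in the files) measured 67.7, 61.0 and 51.1 CPM at 24 h, 111, 114 and 82.5 CPM at 6 h, and 174, 137 and 132 CPM in mock. Every 24 h library lay below every 6 h library, and these below mock. The 24 h level was lower than mock (-1.30 ± 0.14, adjusted p = 7.77e-06) and lower than at 6 h (-0.77 ± 0.14, adjusted p = 0.000706), while the 6 h difference from mock was not called (-0.53 ± 0.14, adjusted p = 0.0121). HSC70-1 (AT5G02500; MED37E in the files), a constitutive cognate, had the highest level per transcript length of all 36 members in every group, at 610.1 ± 81.1 RPKM at 24 h, 687 ± 84.5 RPKM at 6 h and 758 ± 31.3 RPKM in mock. RPKM are the deposited values scaled by exon length and library size. It was called in no comparison, with log2 fold changes of -0.12 at 6 h and -0.24 at 24 h against mock.

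HSP101 (AT1G74310; CLPB1 in the files), the disaggregase needed for acquired thermotolerance, measured 20.7, 18.8 and 16.6 CPM at 24 h, 29.8, 30.5 and 26.5 CPM at 6 h, and 34.6, 29.8 and 26.2 CPM in mock. The 6 h and mock libraries overlapped and the 24 h libraries lay below both. The log2 fold change was -0.69 ± 0.11, adjusted p = 0.000185, at 24 h against mock, and -0.63 ± 0.11, adjusted p = 0.000574, at 24 h against 6 h. The call against mock was lost without mock replicate 1 (-0.58, adjusted p = 0.000926), and the call between the times was lost without 24 h replicate 3 (-0.55, adjusted p = 0.00253) or 6 h replicate 2 (-0.58, adjusted p = 0.00241), each with a fold below 1.5. At 6 h against mock the difference was -0.06 ± 0.11, adjusted p = 0.695.

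BIP3 (AT1G09080; MED37B in the files) is an HSP70 of the ER lumen that is known as a marker of the unfolded protein response. It had 42, 34 and 14 reads at 24 h, 3, 7 and 3 reads at 6 h, and 1, 1 and 1 reads in mock. The 24 h libraries were all above the 6 h libraries, and these above mock. Its scaled reads at 24 h were 34.4 times those in mock (95% exact interval 11.4 to 170, counting error only), and the test called it against mock (4.93 ± 0.63, adjusted p = 2.54e-05) and against 6 h (2.85 ± 0.48, adjusted p = 0.000360). At 6 h against mock the ratio was 4.65 (1.28 to 25.4) and not called (2.08 ± 0.93, adjusted p = 0.101). The letters TGACGTG, the core of an unfolded protein response element, were searched on both strands and not found in the 250 bases upstream of BIP3. They occurred upstream of 1 of 36 members, HSA32, and of 2.90% of all protein-coding genes, and no other element of the ER stress response was searched.

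Of the heat tolerance proteins, ROF2 (AT5G48570; FKBP65 in the files), a prolyl isomerase that binds HSP90, measured 22.3, 17.5 and 19.8 CPM at 24 h, 33.0, 31.2 and 27.5 CPM at 6 h, and 57.2, 43.1 and 36.5 CPM in mock. Its 3 groups were ordered without overlap, mock being the highest. It was lower at 24 h than in mock (-1.19 ± 0.15, adjusted p = 2.00e-05), and at 6 h the fold was just under the threshold (1.49-fold, -0.58 ± 0.14, adjusted p = 0.00847). The 6 h difference passed without mock replicate 3 (-0.71, adjusted p = 0.00271). ROF2 was also lower at 24 h than at 6 h (-0.62 ± 0.15, adjusted p = 0.00414), a call lost without 24 h replicate 2 (-0.53, adjusted p = 0.0171), 24 h replicate 3 (-0.61, adjusted p = 0.0136), 6 h replicate 1 (-0.56, adjusted p = 0.0176) or 6 h replicate 2 (-0.59, adjusted p = 0.0145).

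HSA32 (AT4G21320), which prolongs acquired thermotolerance, was lowest at 6 h, although only the comparison of the times was called. It measured 8.28, 7.28 and 6.25 CPM at 24 h, 4.21, 4.60 and 4.94 CPM at 6 h, and 6.48, 7.21 and 6.33 CPM in mock. The 6 h libraries lay below both other groups, which overlapped. HSA32 gave a log2 fold change of 0.67 ± 0.13, adjusted p = 0.00102, at 24 h against 6 h, lost without 24 h replicate 1 (0.56, adjusted p = 0.00586), and -0.54 ± 0.13, adjusted p = 0.00675, at 6 h against mock. MBF1C (AT3G24500), a transcriptional coactivator needed for thermotolerance, measured 44.0, 39.6 and 31.3 CPM at 24 h, 35.7, 39.9 and 30.4 CPM at 6 h, and 61.7, 52.5 and 47.7 CPM in mock. Both estradiol groups lay below mock and overlapped each other. It was called at 6 h (-0.61 ± 0.14, adjusted p = 0.00409) but not at 24 h against mock (-0.49 ± 0.13, adjusted p = 0.00662). The 6 h call was lost without 6 h replicate 1 (-0.62, adjusted p = 0.0149), 6 h replicate 3 (-0.51, adjusted p = 0.0220), mock replicate 1 (-0.50, adjusted p = 0.0199) or mock replicate 2 (-0.62, adjusted p = 0.0121), and the 24 h comparison passed without 24 h replicate 1 (-0.61, adjusted p = 0.00342).

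**Figure D4:**
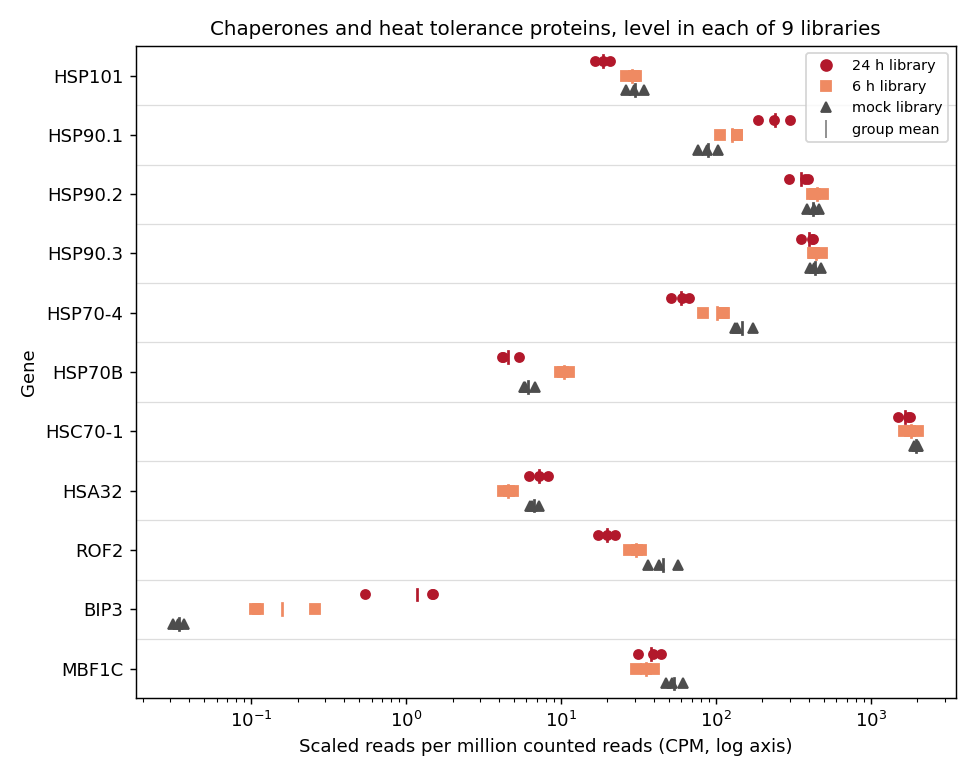
Level of the 11 larger chaperones and heat tolerance proteins in each of the 9 libraries, in CPM on a log axis, with vertical ticks for group means. HSP90.1 and BIP3 are highest in the 24 h libraries, HSP70B in the 6 h libraries, and HSP70-4 and ROF2 in the mock libraries.

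Of 11 tested heat shock factors, 1 was higher and 1 lower than mock at 6 h, where 5.43% of all tested genes were higher and 7.71% lower. At 24 h, 3 factors were higher and 4 lower than mock, where 17.6% of all tested genes were higher and 18.0% lower. HSFB1 (AT4G36990), a class B repressor and the most abundant factor, measured 507, 506 and 346 CPM at 24 h, 291, 327 and 291 CPM at 6 h, and 197, 186 and 194 CPM in mock. The groups were ordered without overlap, the 24 h libraries being the highest. It was 1.58-fold higher at 6 h (0.66 ± 0.13, adjusted p = 0.00172) and 2.35-fold higher at 24 h (1.24 ± 0.13, adjusted p = 3.98e-06) than in mock. At 24 h against 6 h the fold stayed just below 1.5 (0.58 ± 0.13, adjusted p = 0.00196) and passed without 24 h replicate 3 (0.74, adjusted p = 1.22e-05), 6 h replicate 2 (0.64, adjusted p = 0.00194) or mock replicate 2 (0.59, adjusted p = 0.00245). The other class B repressors, HSFB2A (AT5G62020) and HSFB2B (AT4G11660), were called in no comparison. HSFB2A averaged 12.4 ± 0.597 CPM at 24 h, 13.1 ± 1.04 CPM at 6 h and 14.2 ± 0.360 CPM in mock, and HSFB2B averaged 14.1 ± 1.82, 13.5 ± 0.924 and 15.9 ± 1.83 CPM in the same groups (SD, n = 3 each).

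The class A1 factors, which start the heat response, did not move together. HSFA1B (AT5G16820) measured 10.6, 12.6 and 11.3 CPM at 24 h, 16.7, 20.9 and 17.0 CPM at 6 h, and 26.8, 27.8 and 26.9 CPM in mock. Its groups did not overlap, and the 24 h libraries were the lowest. HSFA1B gave log2 fold changes of -1.24 ± 0.10, adjusted p = 6.44e-07, at 24 h against mock, and -0.58 ± 0.10, adjusted p = 0.000755, at 6 h against mock, where the fold limit was missed. At 6 h it passed without 6 h replicate 2 (-0.67, adjusted p = 0.000260), mock replicate 1 (-0.59, adjusted p = 0.00314) or mock replicate 3 (-0.59, adjusted p = 0.00377). HSFA1B was lower at 24 h than at 6 h (-0.66 ± 0.10, adjusted p = 0.000194), a call lost without 6 h replicate 2 (-0.54, adjusted p = 0.000510). HSFA1A (AT4G17750) and HSFA1D (AT1G32330) were called in no comparison, although their 24 h libraries lay above all mock libraries. At 24 h against mock both met the adjusted p limit and missed only the fold limit. The log2 fold change there was 0.52 ± 0.10, adjusted p = 0.000752, for HSFA1A and 0.44 ± 0.07, adjusted p = 0.000129, for HSFA1D. The same held at 24 h against 6 h, with 0.46 ± 0.10, adjusted p = 0.00244, and 0.38 ± 0.07, adjusted p = 0.000592. HSFA1A averaged 12.6 ± 1.02 CPM at 24 h, 9.13 ± 0.548 CPM at 6 h and 8.75 ± 0.798 CPM in mock, and passed at 24 h against mock without mock replicate 3 (0.60, adjusted p = 0.000955). HSFA1D averaged 30.7 ± 1.59, 23.6 ± 0.447 and 22.7 ± 0.708 CPM in the same groups.

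HSFA6B (AT3G22830), a class A factor linked to abscisic acid and salt responses, was the only tested member called in opposite directions against mock. It measured 5.69, 7.02 and 6.21 CPM at 24 h, 1.01, 1.73 and 1.13 CPM at 6 h, and 3.17, 3.60 and 3.34 CPM in mock. All 6 h libraries lay below mock and all 24 h libraries above it. It was 2.61-fold lower at 6 h (-1.39 ± 0.20, adjusted p = 0.000229) and 1.86-fold higher at 24 h (0.90 ± 0.17, adjusted p = 0.000461) than in mock, and 4.87-fold higher at 24 h than at 6 h (2.28 ± 0.19, adjusted p = 1.33e-06). HSFA2 (AT2G26150), a heat-induced factor that sustains the response, measured 5.05, 4.46 and 3.26 CPM at 24 h, 3.57, 3.39 and 3.28 CPM at 6 h, and 2.94, 2.04 and 2.02 CPM in mock. Both estradiol groups lay above mock. It was called at 24 h against mock only (0.88 ± 0.20, adjusted p = 0.00190), and this call was lost without 24 h replicate 1 (0.73, adjusted p = 0.0114) or mock replicate 3 (0.78, adjusted p = 0.0110). At 6 h the difference from mock was 0.55 ± 0.20, adjusted p = 0.0466.

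A further 3 class A factors were lower at 24 h than in mock. HSFA4A (AT4G18880), linked to oxidative stress signalling, measured 8.53, 12.5 and 11.8 CPM at 24 h, 23.7, 27.5 and 24.5 CPM at 6 h, and 27.0, 27.0 and 29.5 CPM in mock. The 24 h libraries stood below both other groups. It was lower at 24 h than in mock (-1.36 ± 0.12, adjusted p = 1.60e-06) and than at 6 h (-1.21 ± 0.13, adjusted p = 7.66e-06), with -0.14 ± 0.12, adjusted p = 0.366, at 6 h against mock. HSFA7A (AT3G51910), a factor induced by heat, measured 25.9, 38.8 and 29.8 CPM at 24 h, 29.9, 38.3 and 34.2 CPM at 6 h, and 45.9, 50.1 and 51.0 CPM in mock. Both estradiol groups lay below mock. Its 24 h call against mock (-0.64 ± 0.13, adjusted p = 0.000936) was lost without 24 h replicate 1 (-0.52, adjusted p = 0.00397), and at 6 h it was not called (-0.52 ± 0.13, adjusted p = 0.00809) except without 6 h replicate 2 (-0.60, adjusted p = 0.00676).

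HSFA3 (AT5G03720), which acts below DREB2 factors in the heat response, was scarce, with 0.948, 0.486 and 0.660 CPM at 24 h, 1.12, 0.736 and 1.09 CPM at 6 h, and 1.69, 1.43 and 1.39 CPM in mock. The mock libraries were the highest, and the 24 h and 6 h libraries overlapped. It was called at 24 h against mock (-1.07 ± 0.27, adjusted p = 0.00410), and the call was lost without 24 h replicate 2 (-0.89, adjusted p = 0.0177), 24 h replicate 3 (-1.02, adjusted p = 0.0144), mock replicate 1 (-0.98, adjusted p = 0.0174) or mock replicate 2 (-1.09, adjusted p = 0.0131). HSFA7B (AT3G63350), a close relative of HSFA7A, was not tested and had 5, 4 and 3 reads at 24 h, 3, 7 and 11 reads at 6 h, and 3, 2 and 2 reads in mock. Its scaled reads at 6 h were 3.22 times those in mock (95% exact interval 1.32 to 8.96, counting error only).

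**Figure D5:**
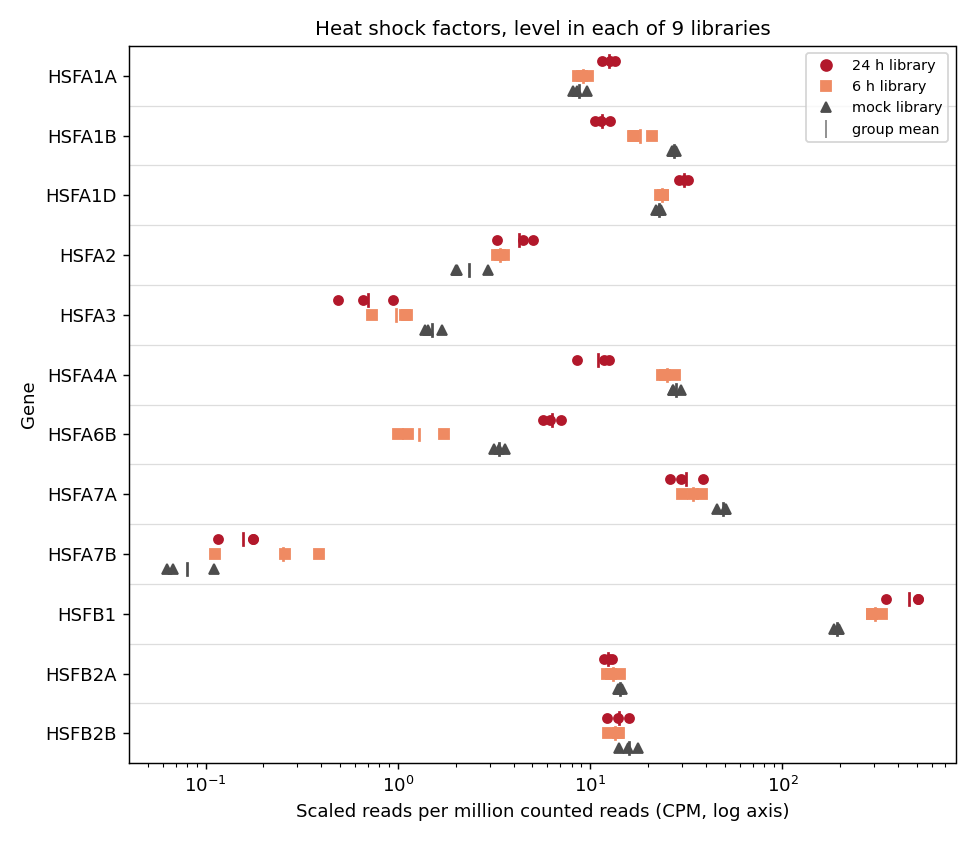
Level of the 12 heat shock factors in each of the 9 libraries, in CPM on a log axis, with vertical ticks for group means. HSFB1 lies between 186 and 507 CPM, and HSFA6B is lowest in the 6 h libraries and highest in the 24 h libraries.

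Levels per transcript length were also ranked within each group. After HSC70-1, the next members by mean RPKM were HSFB1, HSP90.3, HSP90.2 and HSP90.1 at 24 h, where HSP90.2 (115 ± 21.4 RPKM) and HSP90.1 (107 ± 24.6 RPKM) differed by less than the SD of either, and HSP90.3, HSP90.2, HSFB1 and HSP70-4 in mock. HSFB1 averaged 235 ± 42.5 RPKM at 24 h, 164 ± 7.49 RPKM at 6 h and 106 ± 3.51 RPKM in mock (SD, n = 3 each). At 6 h HSP90.3 (165 ± 14.7 RPKM), HSFB1 and HSP90.2 (151 ± 16.2 RPKM) differed by less than the SD of HSP90.2. HSP17.6B averaged 44.4 ± 7.85 RPKM at 24 h, 45.9 ± 2.45 RPKM at 6 h and 23.7 ± 2.52 RPKM in mock, the highest small HSP at both times but not in mock, where HSP23.5 averaged 26.9 ± 1.85 RPKM.

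Further lists of heat response genes were counted by the same rule, under which 5.43% of all tested genes were higher and 7.71% lower than mock at 6 h, and 17.6% were higher and 18.0% lower at 24 h. Of 5 further small HSPs, 2 were higher and 1 lower than mock at 6 h, and 0 were higher and 3 lower at 24 h. HSP26.5 (AT1G52560) was higher at 6 h than in mock (log2 fold change 2.46 ± 0.34) and lower at 24 h than at 6 h (-3.93 ± 0.43), and HSP15.4 (AT4G21870) likewise (1.25 ± 0.20 and -2.41 ± 0.23). HSP15.4 was also lower at 24 h than in mock (-1.16 ± 0.25), and so was called on opposite sides of mock. HSP18.5 (AT2G19310) was lower than mock at 24 h (-2.38 ± 0.13) and at 6 h (-1.09 ± 0.12), and HSP17.4B (AT1G54050) was lower at 24 h (-1.12 ± 0.27). Of 7 further HSFs that could be tested, 1 was lower than mock at 6 h, and 1 was higher and 1 lower at 24 h. HSFB3 (AT2G41690) was the higher one (1.58 ± 0.25) and HSFC1 (AT3G24520) the lower one at 24 h (-1.49 ± 0.11). HSFA4C (AT5G45710) and HSFA5 (AT4G13980) were not called, with 0.52 ± 0.10 and 0.41 ± 0.09 at 24 h against mock.

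Of 17 cytosolic chaperones outside the 36 members, 0 were higher and 2 lower than mock at 6 h, and 2 were higher and 2 lower at 24 h. HSP90.4 (AT5G56000, 0.78 ± 0.09) and HSP70-14 (AT1G79930, 0.71 ± 0.08) were higher at 24 h than in mock, and the HSP90 co-chaperone SGT1A (AT4G23570, -1.89 ± 0.12) and HSP70T-2 (AT2G32120, -1.72 ± 0.14) were lower. Of 8 mitochondrial and plastid chaperones, 0 were called at 6 h against mock, and only CLPB4 (AT2G25140), a mitochondrial ClpB protein, was lower at 24 h (-0.97 ± 0.08). The other named genes of that list were not called at 24 h against mock, namely mtHSC70-1 (AT4G37910, 0.12 ± 0.10), cpHSC70-2 (AT5G49910, -0.46 ± 0.09) and HSP90.5 (AT2G04030, -0.53 ± 0.13).

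Of 17 further ER chaperone and unfolded protein response genes, 0 were called at 6 h against mock, and 3 were higher and 0 lower at 24 h, where 17.6% of all tested genes were higher and 18.0% lower. The higher genes were ERDJ3A (AT3G08970, 1.98 ± 0.18), an ER J-domain protein, BZIP28 (AT3G10800, 1.37 ± 0.07), a membrane-held transcription factor released in ER stress, and the ER stress sensor IRE1B (AT5G24360, 0.78 ± 0.06). P58IPK (AT5G03160) was not called (0.51 ± 0.07). Among the DREB2 factors and other heat-responsive genes, DREB2C (AT2G40340) was 12.7-fold higher at 24 h than in mock (3.67 ± 0.12) and higher at 6 h (1.85 ± 0.12), and DREB2B (AT3G11020) was higher at 24 h (1.07 ± 0.23). DREB2A (AT5G05410) was lower at 6 h (-0.67 ± 0.11) and not called at 24 h against mock (-0.10 ± 0.11). The galactinol synthase GOLS1 (AT2G47180) was lower than mock at 24 h (-3.34 ± 0.10) and at 6 h (-1.90 ± 0.09). The median log2 fold changes of these lists at 24 h against mock were -1.16 for the further small HSPs, 0.39 for the further HSFs, 0.15 for the cytosolic chaperones, -0.08 for the mitochondrial and plastid chaperones, 0.24 for the ER list and 0.49 for the DREB2 list, beside -0.01 over all tested genes.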

How the data were processed

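RNA-seq libraries were made by the authors with a stranded mRNA kit from 3 root samples each of 24 h estradiol, 6 h estradiol and mock. Per the study's methods, reads were trimmed and mapped to TAIR10 in CLC Genomics Workbench, while whether counting used strand was not given in the sources used here. The deposited files hold raw counts of exon reads per gene, total and uniquely placed, and the authors' RPKM and TPM values computed from them, of which TPM was not used. Total exon counts were tested with edgeR 4.0.16 (TMM, filterByExpr, quasi-likelihood F test) in R 4.3.3, with all 9 libraries in 1 fit and Benjamini-Hochberg adjustment over 20272 genes. A call required an adjusted p below 0.01 and a 1.5-fold change, thresholds taken from the study's methods. The test was checked on simulated data with the same spread for every gene and changes planted only in genes above a mean read level. This check does not cover scarce members such as HSP22, HSP23.6 and BIP3. RPKM served for levels between genes. Depth was 24375822 to 31299634 counted reads per library, 98.5 to 98.6% of them unique. Comparisons with a group of 3 or fewer reads, and those of untested members, were given a ratio with an exact 95% interval that covers counting error only.

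The members and lists were chosen with earlier results of these data known. All 36 members were named, those called in at least 1 comparison with the value of every library, and up to 4 genes of each further list were named, called genes first and then by smallest p. All 36 members matched RefSeq's TAIR10.1 annotation, from which positions and upstream sequences were read, and some names in the files differ from those used here. Deviations of same-numbered libraries from their group means correlated at 0.21, 0.33 and 0.15 between 24 h and 6 h, so the numbers may pair those samples. These deviations correlated at 0.13, 0.01 and -0.02 between 24 h and mock and at 0.15, -0.03 and -0.05 between 6 h and mock. The main fit used group alone without a replicate term, so its tests were unpaired, and a replicate block was fitted only as an alternative. Alternatives covered scaling, filters, DESeq2 1.42.0, limma 3.58.1, a replicate block, unique reads, RPKM with pseudocounts of 1 and 0.1, thresholds and leaving out each library.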

Additional observations from a re-analysis of the deposited data

Results flagged for a closer look

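The effects at 6 h and at 24 h differed by the direct test of 24 h against 6 h in edgeR for 20 members, given here as the log2 difference of 24 h over 6 h. The cytosolic small HSPs gave -3.04 for HSP17.6II, -1.91 for HSP17.6C, -1.76 for HSP17.8, -1.66 for HSP17.6A, -1.49 for HSP17.4 and -0.67 for HSP18.2. The small HSPs of organelles gave -3.58 for HSP23.6, -3.13 for HSP22, -1.04 for HSP15.7 and -0.71 for HSP23.5. The larger chaperones and tolerance proteins gave -1.19 for HSP70B, -0.77 for HSP70-4, -0.63 for HSP101, -0.62 for ROF2, 0.67 for HSA32, 0.93 for HSP90.1 and 2.85 for BIP3. The factors gave -1.21 for HSFA4A, -0.66 for HSFA1B and 2.28 for HSFA6B. Only HSFA6B among these was called on opposite sides of mock at the 2 times.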

How the results depend on the processing

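Of 52 calls of members over the 3 comparisons, 35 were kept in every alternative that could fit them, and none changed sign. The stricter filter, which left 20 members, called 3 as higher at 6 h and 3 as higher at 24 h than mock, and 2 as higher and 7 as lower at 24 h than at 6 h. Members lower at 6 h than mock numbered 5 with upper-quartile scaling, 5 with total counts alone and 8 at the looser adjusted p of 0.05 without a limit on fold, where 7 were higher at 24 h than at 6 h. With log2(RPKM + 1), 5 members were higher at 24 h than mock and 2 higher at 24 h than at 6 h, the second count also being 2 with a minimum of 0.5 RPKM. The median log2 fold change of all genes at 24 h was -0.12 against mock and -0.12 against 6 h with upper-quartile scaling, where TMM gave -0.01 and -0.02.

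Leaving out 1 library in turn gave 11 to 12 members higher and 2 to 5 lower at 6 h than mock, 7 to 11 higher and 7 to 9 lower at 24 h than mock, and 3 to 5 higher and 13 to 17 lower at 24 h than at 6 h. The count of members lower at 6 h was 5 without 6 h replicate 2 or without mock replicate 3.

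With the replicate block, 11 members were higher and 3 lower at 6 h than mock, 9 and 9 at 24 h, and 4 and 16 at 24 h against 6 h, and no call of a member changed.

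Signs changed only for differences that were not called. HSP17.8 at 24 h against mock became -0.040 with upper-quartile scaling, -0.0063 with total counts alone, -0.016 with log2(RPKM + 1), with or without the 0.5 RPKM minimum, and -0.031 with log2(RPKM + 0.1). HSP17.6B at 24 h against 6 h became -0.098 with upper-quartile scaling, -0.041 with total counts, -0.010 with the stricter filter, -0.0093 with limma-voom, -0.0084 with the replicate block, -0.061 with log2(RPKM + 1), with or without the minimum, and -0.063 with log2(RPKM + 0.1). HSP90.3 at 6 h against mock became -0.0098 with total counts, -0.00043 with log2(RPKM + 1), with or without the minimum, and -0.00044 with log2(RPKM + 0.1). HSP17.6A-CI at 24 h against mock became 0.0030 with only the groups compared, and HSFB2B at 24 h against 6 h became -0.047 with upper-quartile scaling. Without 1 library, the range was -0.10 to 0.28 for HSP17.8, -0.26 to 0.18 for HSP17.6A-CI and -0.42 to 1.51 for HSP23.6 at 24 h against mock, -0.15 to 0.045 for HSP101, -0.0023 to 0.14 for HSP90.2 and -0.039 to 0.092 for HSP90.3 at 6 h against mock, and -0.12 to 0.14 for HSP17.6B, -0.30 to 0.0040 for HSFA7A and -0.037 to 0.15 for HSFB2B at 24 h against 6 h.

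Depth limited the scarce genes, since HSP22, HSP23.6 and BIP3 had few reads per library outside their highest group, as did HSP17.6II in mock. HSP21 and HSFA7B had too few reads in any group to be tested.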
